A study of Arabidopsis thaliana with 48 samples.

Results

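PR-1-LIKE (AT2G19990) and AT2G19970 are 2 genes of the CAP family, also called the PR-1 family, that lie close together in the Arabidopsis thaliana genome with a single locus of the same family, AT2G19980, between them in the RefSeq gene order. They were taken by name from the probe gene table, as 2 of the 13350 genes that a probe set naming 1 gene represents, and each is represented by 1 probe set. The choice was made on their response to auxin: the differences between the media from 0.5 to 24 h selected the pair, so those differences are given as a description with no test. The difference at 0 h, the array-to-array deviations and the other genes of the family and of the chromosome segment were not part of that contrast and were tested. The change over time on control medium was tested as well, although its arrays from 0.5 h on are the control side of the contrast that selected the pair.

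The study followed transcript levels in Arabidopsis roots after exposure to the natural auxin indole-3-acetic acid (IAA). Seedlings were grown for 6 days on nylon mesh, the mesh was moved at time 0 onto fresh plates with or without 1 µM IAA, and root RNA was hybridised to Affymetrix arrays. Both media were sampled at 0 h (under 5 minutes on the new medium), 0.5, 1, 2, 4, 8, 12 and 24 h, which gives 16 groups of 3 arrays and 48 arrays in all. The ecotype and genotype are not given in the labels, the control groups differ from the IAA groups by the auxin alone as far as the labels say, and nothing says that the 3 arrays of a group came from separate cultures, so the spread between them may be technical.

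CAP proteins take their name from cysteine-rich secretory proteins, antigen 5 and pathogenesis-related 1 proteins; in plants they are mostly small secreted proteins held together by conserved disulfide bridges. The founding member, PR1, is a widely used marker of salicylic acid signalling and is induced in leaves by pathogens. Auxin enters the nucleus of root cells, promotes the breakdown of Aux/IAA repressors and so releases transcription by auxin response factors, and it starts lateral root formation in the root pericycle.

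Values are log2 expression values as the authors deposited them. The highest value on an array lay between 14.1 and 15.1. The lower quartile of an array, used here as a mark of low signal because no detection call was used, lay between 6.11 and 6.30. Arrays carry no read depth, and the number of arrays per group limits the precision. Auxin marker genes were high in the arrays labelled as IAA: GH3.3, which conjugates auxin to amino acids, was 4.94 higher on IAA on the log2 scale at 0.5 h and 6.10 ± 0.555 (SE, 3 arrays per medium) higher at 4 h. Of the root and shoot marker lists few genes could be named: EXPA7, a root hair expansin, had group means of 8.49 to 10.2, and the leaf genes LHCB4.1 and RCA had group means of 7.27 to 8.06 and 7.57 to 8.37. LHCB4.1 was lower on IAA by 0.67 at 4 h (limma adjusted p = 0.0178). The largest difference of RCA was upward, 0.67 at 24 h (limma adjusted p = 0.0515). EXPA7 was higher on IAA by 0.90 at 1 h (limma adjusted p = 0.172) and by 0.89 at 4 h (limma adjusted p = 0.0473). The part of these marker genes in the other results was not tested. In whole roots, a change in the number of cells of a type and a change in RNA per cell cannot be told apart.

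PR-1-LIKE encodes a protein related to PR1. On control medium its log2 value was 7.05, 8.09 and 7.08 in the 3 arrays at 0 h, 6.88, 7.19 and 7.38 at 0.5 h, and 6.76, 7.06 and 7.25 at 1 h. It was 6.74, 8.18 and 6.96 at 2 h, 7.09, 8.36 and 7.30 at 4 h, and 7.06, 7.73 and 7.63 at 8 h. Late in the course it was 7.06, 7.93 and 6.97 at 12 h and 7.20, 6.77 and 6.89 at 24 h. Levels on control medium therefore stayed between 6.74 and 8.36 in all 24 arrays, with a single high array, replicate 2, at several times.

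On IAA medium PR-1-LIKE started in the same range, at 7.21, 7.79 and 7.24 in the 3 arrays at 0 h. It was 8.48, 7.44 and 7.34 at 0.5 h, and 8.34, 7.39 and 6.64 at 1 h. At these times replicate 1 was the highest IAA array, replicate 3 lay under the highest control array, and the groups overlapped. It was 9.04, 9.45 and 7.99 at 2 h and 10.39, 9.48 and 9.81 at 4 h. At 2 h the lowest IAA array was still under the highest control array, whereas from 4 h on the lowest IAA array was above the highest control array. PR-1-LIKE was 12.97, 13.28 and 13.33 at 8 h, 13.76, 13.92 and 13.80 at 12 h, and 13.33, 13.49 and 13.74 at 24 h. These last arrays lay within a narrow band far above the control arrays.

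The difference between the media in PR-1-LIKE, IAA minus control, was 0.60 at 0.5 h and 0.43 at 1 h on the log2 scale. It was 1.53 at 2 h, or 2.90-fold, and 2.31 at 4 h, or 4.97-fold. It was 5.72 at 8 h (52.7-fold), 6.51 at 12 h (91.0-fold) and 6.57 at 24 h (94.7-fold), each with an SE of 0.392 (3 arrays per medium). The first differences were small and the late ones large. Because these differences selected the pair, they are not weighed against the SE, which only describes the precision of the fit. The value at 1 h depended on replicate 1: it was -0.14 without that replicate number and 0.95 without replicate 3. The value at 0.5 h was unstable as well, at 0.11 to 0.93 when replicates or single arrays were left out.

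AT2G19970 had a higher probe set value than PR-1-LIKE throughout, which is not a comparison of transcript amounts because different probe sets bind with different strength. On control medium it was 9.10, 10.11 and 8.74 in the 3 arrays at 0 h, 8.82, 9.23 and 9.23 at 0.5 h, and 8.83, 9.21 and 9.33 at 1 h. It was 8.88, 10.43 and 8.66 at 2 h, 9.11, 10.48 and 9.13 at 4 h, and 9.14, 9.94 and 9.45 at 8 h. At 12 h it was 9.18, 9.87 and 8.71 and at 24 h 9.42, 8.60 and 9.16. The control arrays spanned 8.60 to 10.48, and the array that was high for PR-1-LIKE at 0, 2, 4, 8 and 12 h was high for AT2G19970 as well.

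On IAA medium AT2G19970 was 9.05, 9.99 and 9.27 at 0 h, 10.27, 9.48 and 9.03 at 0.5 h, and 10.47, 9.29 and 8.42 at 1 h. It was 11.08, 11.33 and 9.40 at 2 h, and 12.14, 11.81 and 11.76 at 4 h. As with PR-1-LIKE, the media overlapped up to 2 h, at 2 h through the low IAA replicate 3 and the high control replicate 2, and were apart from 4 h on. AT2G19970 was 13.83, 14.09 and 14.20 at 8 h, 14.31, 14.42 and 14.31 at 12 h, and 14.15, 14.58 and 14.56 at 24 h. The late IAA arrays were again close to each other and far above all control arrays.

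The difference between the media in AT2G19970 was 0.50 at 0.5 h, 0.27 at 1 h, 1.28 at 2 h (2.43-fold) and 2.33 at 4 h (5.03-fold) on the log2 scale. It reached 4.53 at 8 h (23.1-fold), 5.09 at 12 h (34.2-fold) and 5.37 at 24 h (41.3-fold), with an SE of 0.466 (3 arrays per medium). The difference at 1 h was -0.41 without replicate 1, and that at 0.5 h was 0.025 to 0.85 when replicates or single arrays were left out. As background for the overlap of arrays, all 3 IAA arrays lay above all 3 control arrays in 10.6% of the 22746 probe sets at 2 h, 17.1% at 4 h, 18.4% at 8 h, 17.3% at 12 h and 9.61% at 24 h. The pair was chosen on this contrast, so nothing is read from its place among them.

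**Figure D1:**
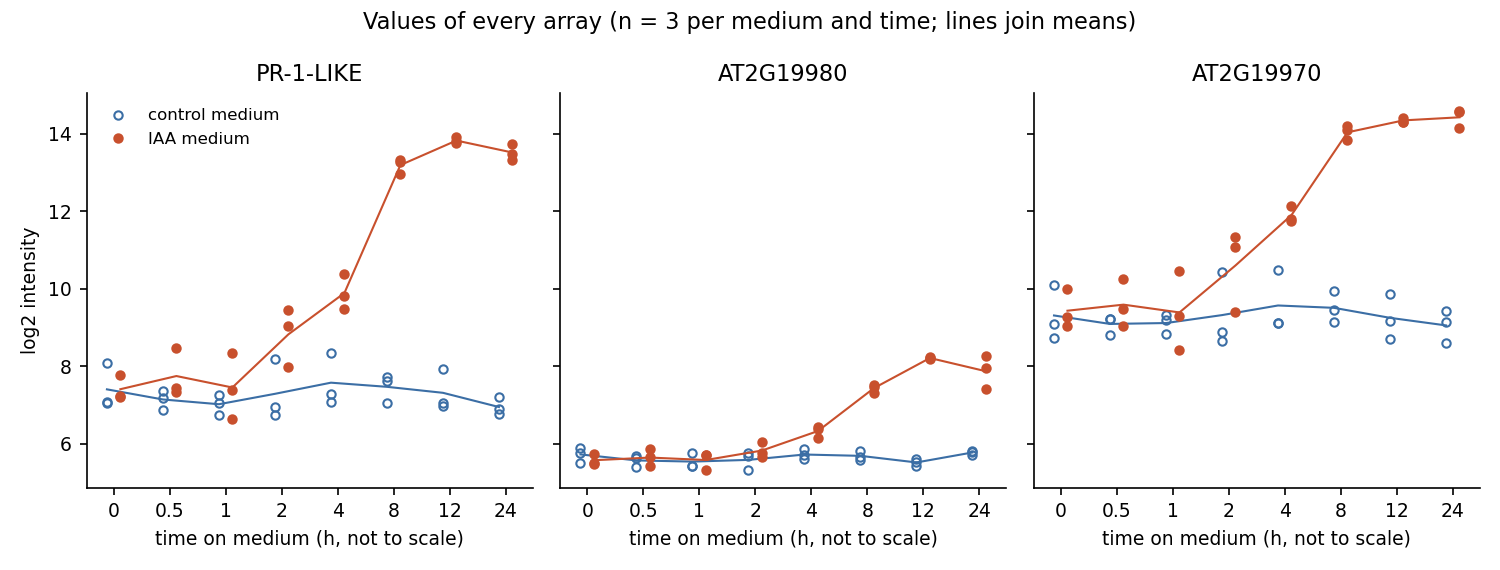
Log2 intensity of PR-1-LIKE, AT2G19980 (the locus between the pair, described further on) and AT2G19970 in every array against the time on the medium (not to scale), with open points for control medium, filled points for IAA medium and lines through the group means (n = 3). From 8 h on the IAA points lie between 12.97 and 13.92 for PR-1-LIKE and between 13.83 and 14.58 for AT2G19970, above all control points.

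The shape of the course was alike in both genes. The largest step between neighbouring times on IAA medium was from 4 to 8 h, when the mean of PR-1-LIKE went from 9.89 to 13.19 and that of AT2G19970 from 11.90 to 14.04 on the log2 scale. From 8 to 12 h the steps were 0.63 and 0.31. From 12 to 24 h the mean of PR-1-LIKE dropped by 0.31 and that of AT2G19970 moved by 0.08. Expressed as a percentage of each gene's own largest log2 difference, PR-1-LIKE stood at 23.4% at 2 h, 35.2% at 4 h and 87.1% at 8 h, and AT2G19970 at 23.8%, 43.4% and 84.3%.

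The late values of AT2G19970 were near the top of what the arrays recorded. At 12 h its probe set lay 0.224 to 0.334 below the highest value on the array, with 1 to 2 probe sets above it, and at 24 h it lay 0.223 to 0.388 below, with 1 to 4 above. PR-1-LIKE lay 0.727 to 0.892 below the highest value at 12 h, with 18 to 22 probe sets above it. Scanner values were not used here, and whether the late levels of AT2G19970 were limited by the range of the array was not tested.

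The genes that mark the early auxin response and lateral root formation had a different time course. GH3.3, LBD29 and LBD16 were past 50% of their own largest log2 difference at the first treated time, 0.5 h, PUCHI at 1 h and CR4 at 2 h, whereas PR-1-LIKE and AT2G19970 passed that mark at 8 h. LBD16 and LBD29 are transcription factors that act downstream of auxin response factors in lateral root initiation. LBD16 had its largest difference, 2.59, at 0.5 h and was at 42.1% of it at 8 h, while LBD29 had its largest difference, 4.88, at 8 h. PUCHI, an AP2-type factor of the early primordium, had its largest difference, 2.63, at 2 h, and CR4, a receptor-like kinase that shapes primordium divisions, rose by 0.39 at 8 h (limma adjusted p = 0.0014). Of the 6 genes of the lateral root list 4 were measured (GATA23 and LBD18 were not listed), and 4 of 4 rose, against 14.2% of all probe sets. The list was chosen with earlier results of these data known, so nothing is read from this count. The times at which genes passed the mark were compared as a description, with no test of the difference.

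**Figure D2:**
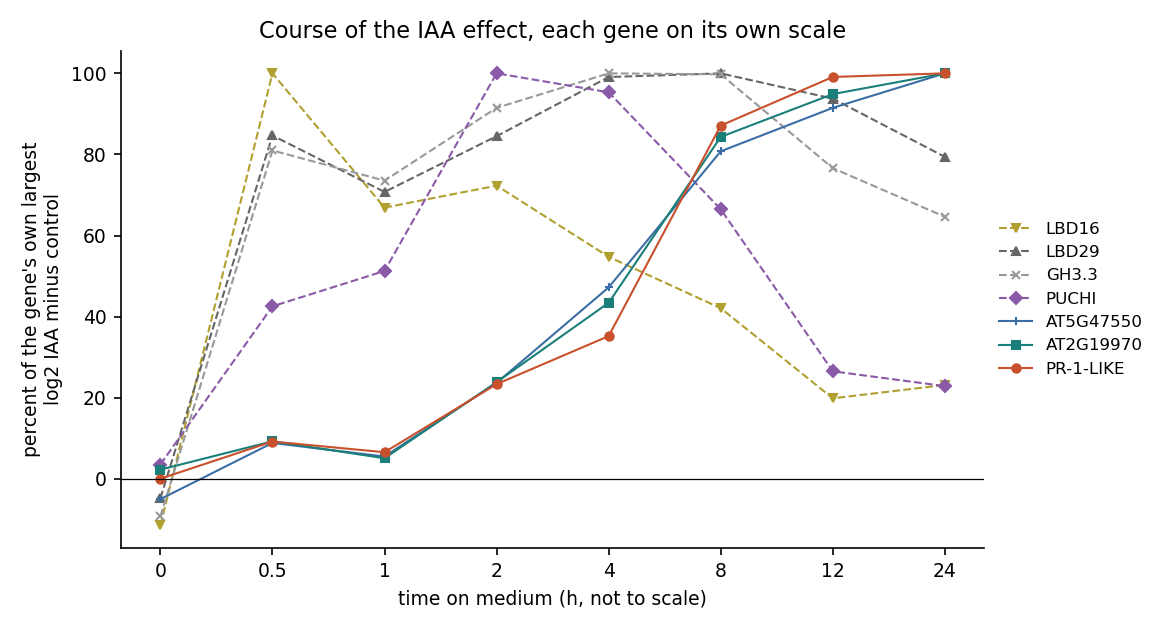
Log2 difference between IAA and control medium as a percentage of each gene's own largest difference, against the time on the medium (not to scale), for PR-1-LIKE, AT2G19970, AT5G47550 (a gene of similar pattern described further on) and the auxin and lateral root genes LBD16, LBD29, GH3.3 and PUCHI, from the means of 3 arrays per medium. At 4 h PR-1-LIKE stands at 35.2% and AT2G19970 at 43.4%, and both are highest at 24 h, while LBD16 is highest at 0.5 h.

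At 0 h, when the roots had been on the medium for under 5 minutes, no difference between the media was detectable in the pair. The difference was 0.0037 ± 0.392 (SE, 3 arrays per medium) in PR-1-LIKE, with a 95% interval of -0.79 to 0.80, and 0.12 ± 0.466 in AT2G19970, with a limma adjusted p of 1 for both. Of all 22746 probe sets limma called 0 at 0 h, or 0%, and 181 had an unadjusted p under 0.05.

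No change over time on control medium passed the test in the pair. The limma F test over the 7 later control times against 0 h gave an adjusted p of 1 for both genes and an unadjusted p of 0.733 for PR-1-LIKE and 0.935 for AT2G19970. The change from 0 h farthest from zero was -0.46 at 24 h in PR-1-LIKE (95% interval -1.25 to 0.34). In AT2G19970 it was 0.26 at 4 h (95% interval -0.69 to 1.20). Changes within these intervals were not detectable with 3 arrays per time. In the whole table the same test called 0 probe sets, or 0%, with 480 at an unadjusted p under 0.05. These control arrays are also the ones against which the IAA arrays were set.

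The spread between arrays of a group was wide in both genes. The residual SD was 0.506 for PR-1-LIKE and 0.602 for AT2G19970 on the log2 scale, against a median of 0.179 over all probe sets, and 96.7% and 98% of probe sets had a lower one. On control medium the SD was highest at 2 h, at 0.777 and 0.966 (n = 3). On IAA medium it was lowest at 12 h, at 0.0856 and 0.0644 (n = 3).

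The departures of single arrays from their group means were shared by the pair. Over the 48 arrays the deviations of PR-1-LIKE and AT2G19970 correlated with Pearson's r = 0.952 and Spearman's rho = 0.933, with a permutation p of 1e-05, the smallest that 100000 permutations within groups can give, and a Benjamini-Hochberg adjusted p of 3e-05 over 3 relations. Without the 2 arrays farthest from the median, control 2 h replicate 2 and IAA 1 h replicate 1, r was 0.940. It was 0.954 among the 24 control arrays and 0.951 among the 24 IAA arrays. Within the 16 arrays of each replicate number r was 0.953, 0.949 and 0.966. In 45 of 48 arrays both genes deviated in the same direction, and the same replicate was the highest of its group for both genes at 8 of 8 control times and 7 of 8 IAA times.

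Among all other probe sets, that of AT2G19970 had the highest correlation of deviations with PR-1-LIKE, and that of PR-1-LIKE the highest with AT2G19970, each among 22745 probe sets. The next gene for PR-1-LIKE was AT5G47550, at 0.859. For AT2G19970 a probe set not listed in the gene table came next, at 0.858, and then AT1G62770, at 0.846. With the other member included, r was above 0.8 in 2 probe sets for PR-1-LIKE and in 15 for AT2G19970. The upper 1% of probe sets began at r = 0.586 for PR-1-LIKE and 0.657 for AT2G19970. Both values of a point come from the same hybridisation, and the points of a group share their group mean. Probe sequences were not used here, so signal that the probe sets of these related genes may share was not examined.

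**Figure D3:**
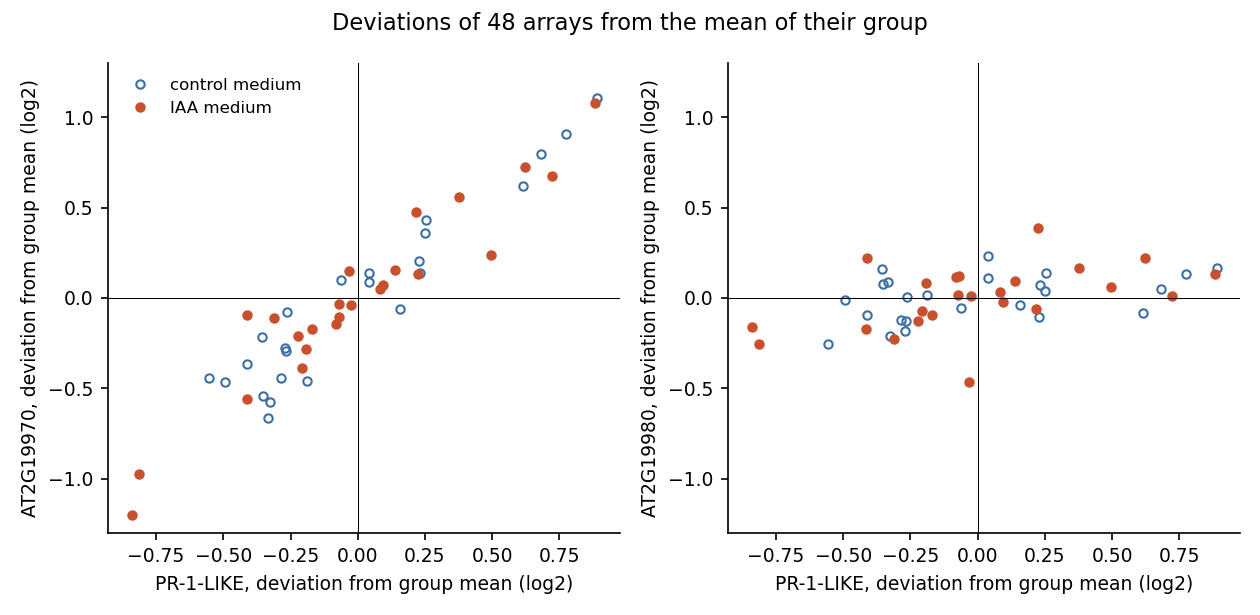
Deviation of each of the 48 arrays from its group mean in AT2G19970 (left) and AT2G19980 (right) against that in PR-1-LIKE, in log2 units, with open points for control medium and filled points for IAA medium. For AT2G19970 the points follow a line with r = 0.952 and 45 of 48 lie on the same side of zero in both genes, and for AT2G19980 r is 0.459.

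AT2G19980, the family member between the pair, had far lower probe set values. On control medium it lay between 5.33 and 5.89, below the lower quartile of the same array in all 24 arrays. On IAA medium it was 5.77, 6.05 and 5.67 at 2 h, 6.39, 6.16 and 6.45 at 4 h, and 7.31, 7.47 and 7.53 at 8 h. It was 8.23, 8.19 and 8.23 at 12 h and 7.96, 7.41 and 8.26 at 24 h. The media overlapped at 2 h and were apart from 4 h on, as in the pair.

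AT2G19980 rose on IAA: the difference was 0.24 ± 0.153 (SE, 3 arrays per medium) at 2 h, with a limma adjusted p of 0.408, and 0.61 at 4 h, or 1.52-fold, with an adjusted p of 0.00442. It was 1.75 at 8 h (3.36-fold), 2.69 at 12 h (6.47-fold, limma adjusted p = 4.57e-16) and 2.09 at 24 h (4.27-fold). Because the control values lie in the low range of the arrays, these folds rest on a control level that was not shown to be above background. Signal that the probe set of AT2G19980 may share with the much higher probe sets of the pair was not examined. The rise is therefore one of the probe set. The gain from 2 to 12 h was 2.45 ± 0.217 (limma adjusted p = 6.48e-10), a change that 3.31% of all probe sets passed in either direction. The deviations of AT2G19980 followed those of the pair less closely, with r = 0.459 and rho = 0.484 against PR-1-LIKE (permutation p adjusted over the 3 relations 0.0117 and 0.0107, r 0.421 without the 2 farthest arrays). Against AT2G19970 r was 0.388 and rho 0.403 (adjusted permutation p 0.0271 and 0.0273), and r was 0.333 without the 2 farthest arrays. Neither r reached the upper 1% of all probe sets, which began at 0.586 for PR-1-LIKE and 0.657 for AT2G19970. How many probe sets had an r as high as AT2G19980 was not counted, so nothing particular to this locus is read from these p values.

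Around the pair the chromosome segment was mixed. Of the 21 loci that lie between the pair or among the 10 on either side, 12, AT2G19980 included, had a probe set naming 1 gene. Of these, 5 passed the limma F test of IAA against control over 0.5 to 24 h, which 28.3% of all probe sets passed. Besides AT2G19980, the genes that rose were AT2G19960, by 0.73 at 8 h (1.65-fold, limma adjusted p = 0.000838), AT2G20100, by 0.81 ± 0.17 at 4 h (adjusted p = 0.000685), and HBT (AT2G20000), by 0.48 ± 0.146 at 8 h (adjusted p = 0.0214). For AT2G20100, which had 2 probe sets, only the one with the highest mean was used. AT2G20030 fell by 0.72 ± 0.209 at 12 h (limma adjusted p = 0.0183). The share of all probe sets that rose was 14.2% and the share that fell 10.6%.

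HBT, also named HOBBIT, is the locus next to PR-1-LIKE and encodes a CDC27 subunit of the anaphase-promoting complex that is needed for root meristem formation. Its call was lost when any 1 of 4 arrays of 8 h was left out (IAA replicates 2 and 3, control replicates 1 and 2), at adjusted p values of 0.0577 to 0.104. Leaving out a whole replicate number also ended it, with a limma adjusted p of up to 0.198. AT2G19960, on the other flank, lay below the lower quartile of its array in all 48 arrays, and it lost its call without replicate 1 (limma adjusted p = 0.0656). The call of AT2G20030 was lost without either replicate 2 array of 12 h, at 0.0941 and 0.127. It was also lost when a whole replicate number was left out, with a limma adjusted p of up to 0.342. The other 7 measured loci (AT2G19930, AT2G20010, CAF1, AT2G20050, AT2G20060, AT2G20070 and AT2G20110) did not pass, with largest differences of -0.36 to 0.40, and the number of loci past the test was 3 without replicate 1. The median of the largest log2 difference over the 12 loci, AT2G19980 included, was 0.23, with 8 of 12 upward. Over all probe sets it was -0.12, with 48.7% upward.

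**Figure D4:**
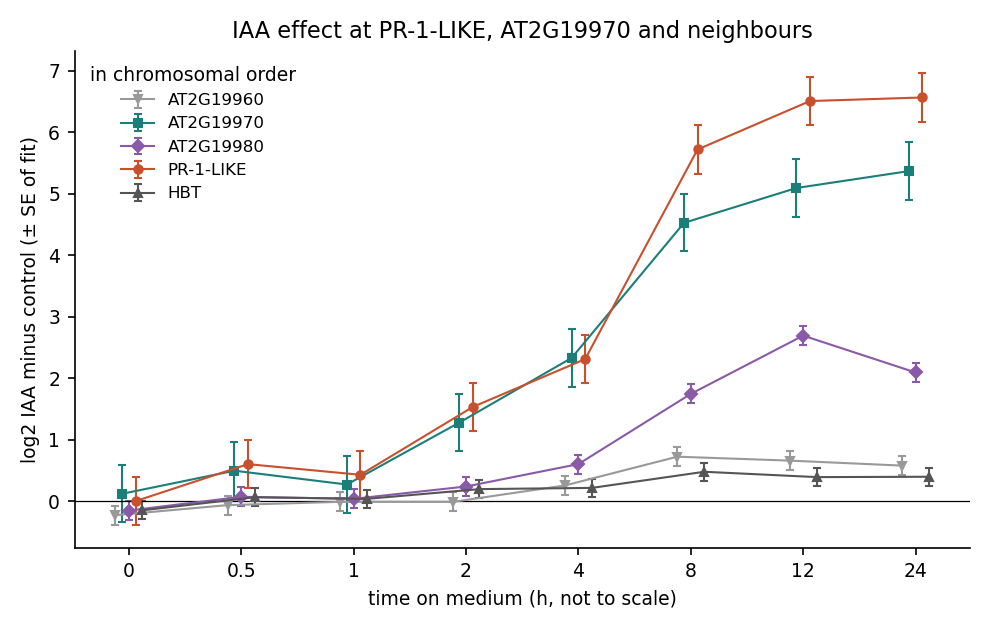
Log2 difference between IAA and control medium, with the SE of the fit (3 arrays per medium), against the time on the medium (not to scale) for PR-1-LIKE, AT2G19970, AT2G19980 between them and the nearest measured locus on either flank, AT2G19960 and HBT. At 12 h PR-1-LIKE stands at 6.51, AT2G19970 at 5.09, AT2G19980 at 2.69, AT2G19960 at 0.66 and HBT at 0.39.

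Of 22 family genes 19 were measured. PR1 itself, PRB1 and AT5G57625 were not listed in the probe gene table and were not analysed here. Of the 17 measured genes other than the pair, 5 passed the F test, 3 upward and 2 downward, and 12 did not pass, a share near the 28.3% of all probe sets. The median of the largest log2 difference was 0.17, against -0.12 over all probe sets, and was not tested. Upward differences were found in 9 of 17, near the 48.7% of all probe sets.

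Among the genes that rose besides AT2G19980, AT4G07820 went from 7.55 ± 0.478 on control medium to 8.62 ± 0.0553 on IAA at 4 h (SD, n = 3), a rise of 1.06 ± 0.369 (SE, limma adjusted p = 0.0423), and was not higher at 12 h, at -0.28. AT1G50060 had group means of 9.78 to 10.7 and rose by 0.88 ± 0.261 at 12 h (limma adjusted p = 0.0217). AT4G31470 fell by 0.95 ± 0.274 at 2 h (limma adjusted p = 0.0215), from 8.34 ± 0.501 on control medium to 7.39 ± 0.139 on IAA (SD, n = 3). AT4G33710 fell by 0.36 ± 0.101 at 4 h (limma adjusted p = 0.0108), at a level below every array's lower quartile. The 12 genes that did not pass were AT1G01310, AT1G50050, AT3G09590, AT3G19690, AT4G25780, AT4G25790, AT4G30320, AT4G33720, AT4G33730, AT5G02730, AT5G26130 and AT5G66590. The ends of their range were AT4G25790 with 0.73 ± 0.444 at 4 h (limma adjusted p = 0.307) and AT4G33730 with -0.94 ± 0.44 at 12 h (adjusted p = 0.187).

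The calls of these 4 genes were not firm. Leaving out single arrays in turn ended the call of AT1G50060 in 34 of 42 cases (adjusted p 0.0501 to 0.103), that of AT4G33710 in 15 (0.0506 to 0.106), that of AT4G07820 in 9 (0.0531 to 0.212) and that of AT4G31470 in 9 (0.0504 to 0.157). The family count of 5 was 1 without replicate 1 and 2 without replicate 2. Among single arrays it was 1 without control 4 h replicate 1 or IAA 4 h replicate 2 or 3, and 2 without IAA 2 h replicate 1 or 2 or IAA 4 h replicate 1. It was 3 without control 0.5 h replicate 1 or 3, control 1 h replicate 1, any control array of 2 h, control 4 h replicate 2, control 8 h replicate 1 or 3, control 12 h replicate 2 or 3, control 24 h replicate 1, or IAA 12 h replicate 1 or 3. AT2G19980 and, among the neighbours, AT2G20100 kept their calls in all these fits.

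**Figure D5:**
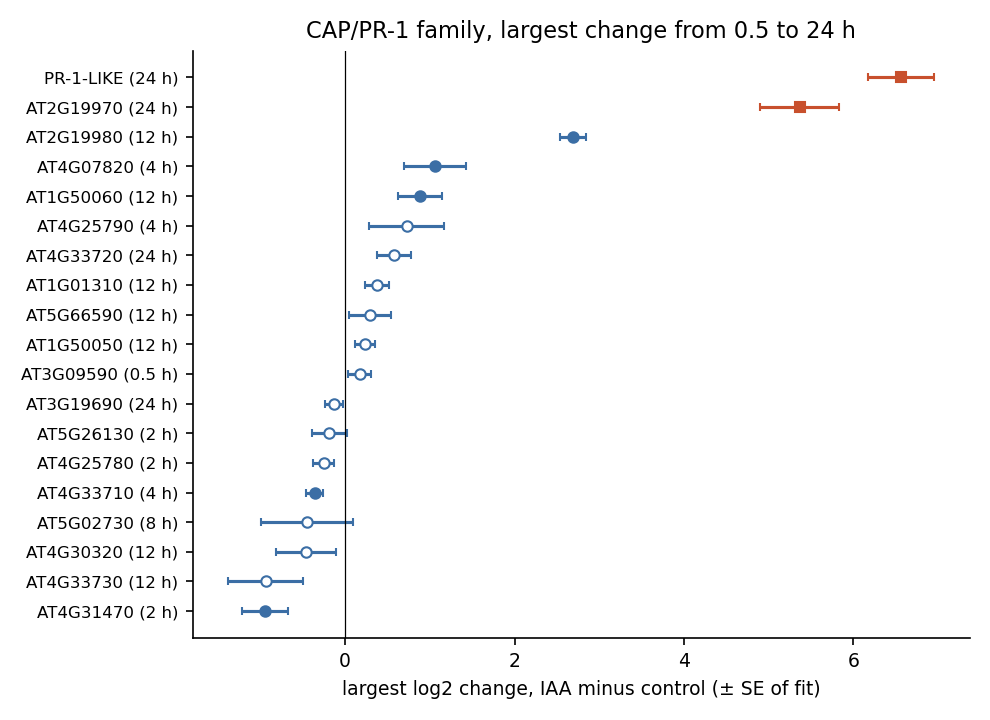
Largest log2 difference between IAA and control medium over 0.5 to 24 h, with the SE of the fit (3 arrays per medium) and its time in brackets, for the 19 measured CAP family genes, with squares for the pair, filled circles for other genes that rose or fell and open circles for genes that did not pass. The pair lies at 6.57 and 5.37 and AT2G19980 at 2.69, and the other 16 genes lie between -0.95 and 1.06.

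Other genes of the defence response to which PR1 belongs could hardly be read. Of 28 genes in the list 2 were measured, and 0 of 2 passed the limma F test. PDF1.2, a plant defensin and marker of jasmonate and ethylene signalling, differed by 0.27 at 8 h (F test adjusted p = 0.899). GRX480, a glutaredoxin that interacts with TGA factors in the crosstalk of salicylic acid and jasmonate, differed by -1.67 ± 0.578 at 12 h, with a limma F test adjusted p of 0.0542. The count was 1 of 2 without control 0.5 h replicate 2, control 2 h replicate 1 or 3, or IAA 2 h replicate 1.

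By Pearson's correlation over the 16 group means, the pattern of PR-1-LIKE and that of AT2G19970 correlated at 0.997. Candidates were the 1566 genes whose group means ranged over at least 1 log2 unit. For both genes the most alike other gene was AT5G47550, at 0.994 with PR-1-LIKE and 0.997 with AT2G19970. For PR-1-LIKE it was followed by AT5G65205 (0.989), AT4G28160 (0.987), AT3G20300 (0.987) and AT1G67750 (0.987), and for AT2G19970 by AT1G67750 (0.993), AT5G65205 (0.99), AT1G10770 (0.99) and AT1G30760 (0.984).

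These genes were picked for a similar shape of the course, so the shared shape is no separate result. The height of the course differed between them. AT5G47550 differed between the media by 5.12 at 24 h (34.8-fold), close to AT2G19970, and first passed 50% of its largest difference at 8 h, as the pair did. AT5G65205 reached 1.42 at 12 h. AT1G67750 reached 4.56 and AT1G30760 reached 4.52 at 12 h and stood at 3.50 at 24 h; both, with AT1G10770, passed 50% at 4 h. AT2G19980 ranked at place 7 for PR-1-LIKE, at 0.982, and at place 16 for AT2G19970, at 0.974. In all, 44 genes exceeded 0.95 with PR-1-LIKE and 50 with AT2G19970. All these correlations share the same 16 groups of arrays.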

How the data were processed

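Root RNA of 48 arrays in 16 groups was analysed from the table of the authors' deposited log2 expression values, 1 per probe set and array, which needed no further logarithm. The background correction, normalization and summary used by the authors are not given in the sources used here. The values were used as deposited, with 0 sample columns left out. The 64 control probe sets were removed, leaving 22746, of which 13513 name 1 gene in the platform's gene table, 503 name several and 8730 are not listed. Gene names and gene order follow RefSeq assembly TAIR10.1.

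A linear model with 16 group means was fitted to all arrays with limma 3.58.1 in R 4.3.3 and empirical Bayes moderation. Benjamini-Hochberg adjustment ran over the whole table, with a threshold of 0.05. A gene rose or fell if it passed the F test over the 7 treated times and its difference farthest from zero passed at its own time. A probe set stood for a gene where there was 1, and otherwise the one with the highest mean. Deviations from group means were permuted within groups 100000 times.

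Genes were named by rule: both members, all measured family genes and neighbours, and the 5 genes most like each member. PDF1.2 and GRX480 were named because they were the measured genes of the defence list, outside the rule. The members and lists were chosen with earlier results of these data known. The alternatives were quantile normalization, median centring, a filter on probe sets of low mean, a replicate block, an intensity trend, fits of the compared arrays alone, and leaving out replicates and single arrays. The fitting was tested on simulated data.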

Additional observations from a re-analysis of the deposited data

Results flagged for a closer look

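The family genes other than the pair (17 measured) and the neighbours (12 measured, AT2G19980 in both lists) were compared between 2 and 12 h. The log2 difference between IAA and control medium changed past the test in 2 of these genes. Of all probe sets 3.31% passed in either direction. In AT2G19980 it was 0.24 at 2 h and 2.69 at 12 h, a change of 2.45 ± 0.217 (SE, limma adjusted p = 6.48e-10). In AT4G31470 it was -0.95 at 2 h and 0.42 at 12 h, a change of 1.36 ± 0.387 (SE, limma adjusted p = 0.0399). At 12 h alone the latter difference did not pass (limma adjusted p = 0.385). Both times were chosen after the data were seen.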

How the results depend on the processing

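No value given for the pair from 2 h on changed direction under any alternative tried. Leaving out replicates or single arrays gave PR-1-LIKE 6.42 to 6.79 at 24 h, 1.82 to 2.91 at 4 h and -0.14 to 0.95 at 1 h, and AT2G19970 5.06 to 5.69 at 24 h and -0.41 to 0.86 at 1 h. The correlation of the pair's deviations was 0.945 to 0.968 without each replicate number in turn. The family count of 5 became 3 under quantile normalization, median centring, the filter on probe sets of low mean (which removes 8 of the 17 genes) and fits of the compared arrays alone, and 1 to 5 when arrays were left out. The neighbour count of 5 ranged over 3 to 6 and the defence count of 0 over 0 to 1 when arrays were left out. The defence count was 1 with that filter, with the replicate block, with the compared arrays alone, and when the 4 arrays that lay farthest from the mean of their group were dropped, an alternative chosen after seeing the data. Over all probe sets the F test called 2741 to 6810 when arrays were left out, against 6429, with 2741 without replicate 1 and 3556 without replicate 2, and the control time test called 0 to 2, against 0. The cause was not tested. Replicate numbers were not taken as pairs, because deviations did not correlate above 0.1 in every pair of control and IAA arrays with equal number. They did in 20 of 24 pairs (r from -0.18 to 0.48). However, 19 of 24 control arrays correlated best with the IAA array of their own number. Arrays of equal number therefore tended to deviate together, and the permutations within groups did not allow for this. With the replicate block the F test called 8287 probe sets, 5 family genes and 7 neighbours, and the correlation of the pair's deviations stayed at 0.952. The late values of AT2G19970 lie near the top of the array, and whether this limited them was not tested. Those of AT2G19980 and AT2G19960 on control medium lie under the lower quartile.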
